A study of Drosophila melanogaster with 4 samples.

Results

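3LHet and 3RHet are the assembled heterochromatic sequences of Drosophila melanogaster chromosome 3, from the left and the right arm. They measure 2.56 Mb and 2.52 Mb in the release 5 assembly of FlyBase. The regions described here are all enriched H3K9me2 regions that the authors' lists place on these sequences, with regions of depletion left out. They number 208 of 3667 in the list of ChIP replicate 1, 322 of 4728 in that of replicate 2 and 169 of 5614 in a combined list that the authors made from the replicate set. On 3LHet the lists held 117, 174 and 93 regions, and on 3RHet 91, 148 and 76, in that order of lists. Since it was made from the replicate libraries, the combined list adds no further measurement.

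All libraries came from nuclei of whole wild-type Oregon-R larvae (Oregon-R-modENCODE) of the third instar, raised from population cages. The series holds 2 ChIP libraries made with an antibody against H3K9me2 and 2 input libraries of unselected chromatin, each the background of the ChIP library with its replicate number. No treatment or mutant is compared, and larval tissues are mixed, so every value is an average over cell types. The labels do not say that the replicates came from separate collections, so their spread may be technical, and the lists hold no read counts, so depth is unknown.

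H3K9me2, dimethylation of lysine 9 on histone H3, is a mark of silent chromatin. In flies it is placed by the methyltransferases Su(var)3-9, Eggless and G9a and bound by heterochromatin protein 1, and together with its trimethylated form it covers the repeat-rich chromatin around centromeres. Such chromatin is mostly transposon remnants and other repeats, but it also carries protein-coding genes that are transcribed there. The genes within 3LHet and 3RHet are not named here, since the gene table at hand uses another genome release.

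H3K9me2 regions covered most of both sequences. 3LHet was covered over 86.9% in replicate 1 and 81.3% in replicate 2, and 3RHet over 83.2% and 78.8%. The combined list covered 90.2% of 3LHet and 85.8% of 3RHet. In each replicate 3LHet thus lay above 3RHet, by 3.70 percentage points in replicate 1 and 2.57 in replicate 2, with a mean of 3.14 ± 0.804 points (SD, n = 2). Replicate 1 exceeded replicate 2 on both sequences by more than the sequences differed. With 2 libraries an exact permutation test cannot give a two-sided p below 0.5, so none was run, and the comparisons between 3LHet and 3RHet are given as differences within each replicate.

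**Figure D1:**
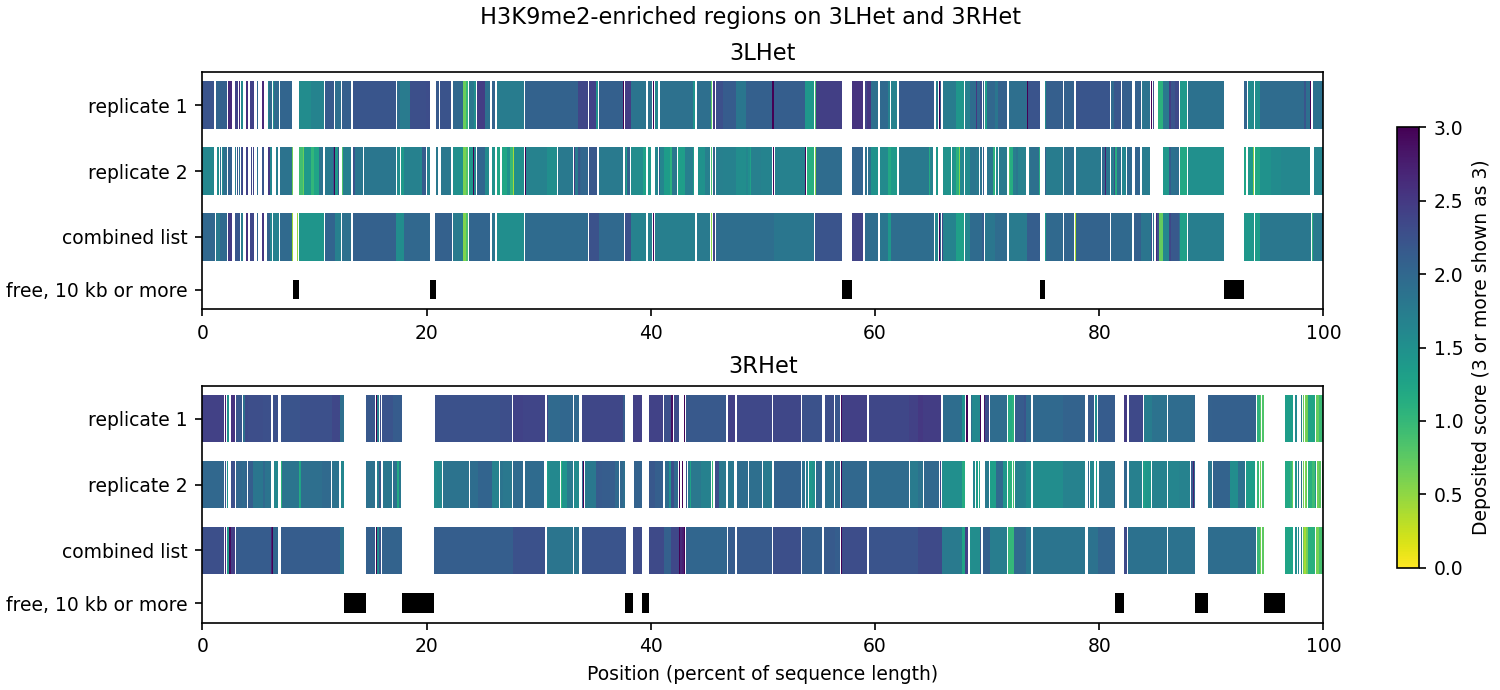
Enriched H3K9me2 regions along 3LHet (top) and 3RHet (bottom) in both replicate lists and the combined list, as percent of the sequence length, coloured by the deposited score. Black bars mark the 5 stretches on 3LHet and the 7 on 3RHet of at least 10 kb that were free of regions in both replicates, and pale colours at the far right of 3RHet mark the low scores there.

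The higher coverage of 3LHet went with fewer long uncovered stretches, not with denser coverage elsewhere. Bases free of regions in both replicates made up 12.5% of 3LHet (319.6 kb in 111 stretches) and 16.1% of 3RHet (405.1 kb in 89 stretches). Stretches of at least 10 kb took 4.32% of 3LHet and 9.96% of 3RHet, whereas shorter ones took 8.19% of 3LHet and 6.13% of 3RHet. Outside the long stretches the order turned round. There 3LHet was covered over 90.8% in replicate 1 and 85.0% in replicate 2, and 3RHet over 92.4% and 87.5%, a difference of -2.03 ± 0.637 points (3LHet minus 3RHet, SD, n = 2). The limit of 10 kb was chosen with the data in view. Free here means without listed regions. Assembly gaps and sequence where reads cannot be placed were not set against these stretches, so absence of the mark was not tested.

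3LHet had 5 stretches of at least 10 kb that were free in both replicates, with 110.3 kb in all. The longest ran over 47.0 kb (positions 2328348 to 2375393), and the next over 24.0 kb (1457004 to 1481037), 14.4 kb (205994 to 220369), 13.4 kb (518032 to 531479) and 11.4 kb (1909272 to 1920689). The sixth measured 8.96 kb (2169309 to 2178264), so the limit falls in a gradual series of lengths.

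3RHet had 7 such stretches with 250.8 kb in all. The longest measured 73.4 kb (447721 to 521147), 49.5 kb (317381 to 366906) and 47.2 kb (2383924 to 2431125), and the first of these was longer than any on 3LHet. Then followed 28.7 kb (2229776 to 2258444) and 20.4 kb (2048843 to 2069269), and outside the 5 longest 17.8 kb (950134 to 967936) and 13.7 kb (988242 to 1001965). The 5 longest stretches held 34.5% of the free bases of 3LHet and 54.1% of those of 3RHet. The 7 stretches of 3RHet were centred at 13.6%, 19.2%, 38.1%, 39.5%, 81.8%, 89.1% and 95.6% of its length, which left none between 39.5% and 81.8%.

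The long stretches were nearly empty in the combined list too. It covered 0% to 0.816% of each of the 7 on 3RHet, by the edges of the neighbouring regions alone. On 3LHet it covered 0.612% to 3.61% of 4 of them. The stretch at 205994 to 220369 differed, with 29.9% covered, including 3 whole short regions of 1045 bp, 1205 bp and 1127 bp and scores of 0.494, 0.392 and 0.490. Over all free bases, the combined list filled 22.6% on 3LHet and 12.4% on 3RHet, and it reached into 107 of 111 stretches on 3LHet and 85 of 89 on 3RHet.

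**Figure D2:**
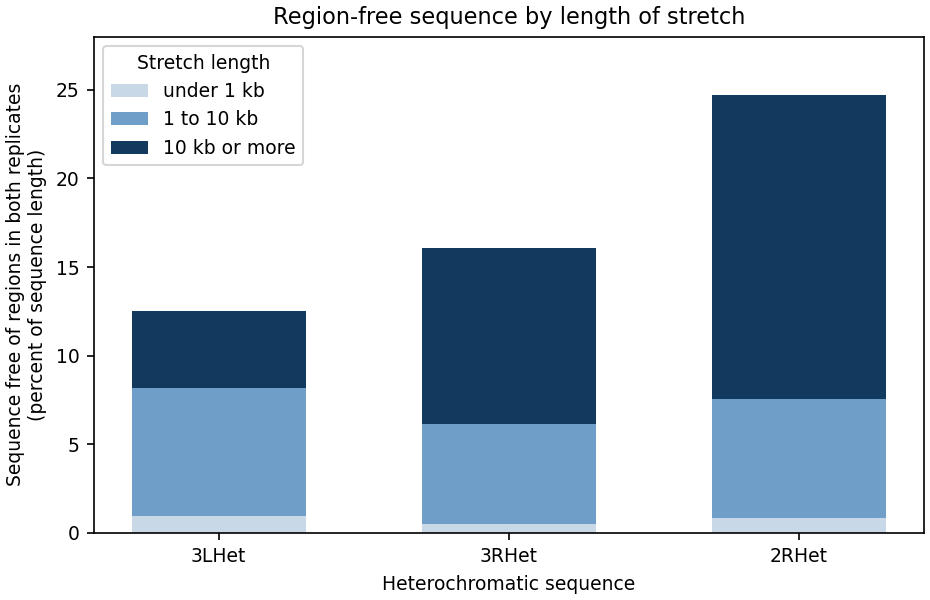
Sequence free of H3K9me2 regions in both replicates as percent of sequence length, split by the length of the stretch, for 3LHet, 3RHet and 2RHet (1 value per sequence, no error). Stretches of 10 kb or more make up 34.5% of the free bases on 3LHet, 61.9% on 3RHet and 69.4% on 2RHet.

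The same contrast was seen beside 2RHet, the heterochromatic sequence closest in size. Its free share was 24.7%, above both chromosome 3 sequences, with 11 stretches of at least 10 kb and the longest at 111.4 kb. Shorter stretches took 7.56% of 2RHet, a share between those of 3LHet and 3RHet. The 3 sequences thus differed more in their long stretches than in their short ones, with 1 value per sequence and no test.

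In windows of 50 kb the median coverage exceeded 85% on both sequences in each replicate. At least 90% of the window was covered in both replicates in 19 of 51 windows of 3LHet and 20 of 50 of 3RHet, leaving out a last window under 25 kb on each. The median window of 3LHet was covered over 91.3% in replicate 1 and 85.8% in replicate 2, and that of 3RHet over 92.3% and 87.5%. Windows covered under 50% in both replicates numbered 2 on 3LHet and 4 on 3RHet. The lowest window of 3LHet (100001 to 150000) was covered over 37.8% ± 5.04 (SD, n = 2). It holds free stretches of 8.05 kb (116877 to 124928) and 8.43 kb (140830 to 149255), both under 10 kb. The lowest of 3RHet (450001 to 500000) was covered over 0% in both replicates and in the combined list, since it lies inside the longest free stretch. The fully covered windows were 1400001 to 1450000 and 1600001 to 1650000 on 3LHet and 1500001 to 1550000 on 3RHet, at 100% in both replicates.

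The enriched domains were long on both sequences, and their typical length did not separate them. The median region of 3LHet measured 10605 bp in replicate 1 and 6722 bp in replicate 2, and that of 3RHet 11555 bp and 8443.5 bp. The difference of -1336 ± 545.5 bp (3LHet minus 3RHet, SD, n = 2) had the same sign in both replicates, but it was smaller than the SD between replicates of 2746 bp on 3LHet and 2200 bp on 3RHet. In the combined list it was 1841 bp, the other way, with medians of 13703 bp on 3LHet and 11862 bp on 3RHet. When regions within 1000 bp of each other were merged, it was 2744 bp, also the other way. The order in median length thus rests on where neighbouring regions were split.

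Long domains held most of the covered bases. Regions of at least 20 kb numbered 37 in replicate 1 and 30 in replicate 2 on 3LHet, and 34 and 31 on 3RHet. They held 72.5% and 52.6% of the covered bases of 3LHet in replicates 1 and 2, and 79.6% and 57.0% of those of 3RHet. The length at which regions that long or longer hold 50% of the covered bases (N50) was 30.9 kb and 21.9 kb on 3LHet, against 47.4 kb and 21.7 kb on 3RHet, so that 3RHet was higher in replicate 1 and about level in replicate 2.

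The largest domains of the combined list were mostly covered in both replicates. That list was made from the same libraries, so this cover is not a separate check. Over the whole sequence, replicates 1 and 2 covered 86.9% and 81.3% of 3LHet and 83.2% and 78.8% of 3RHet. On 3LHet the 5 longest regions of the combined list measured 144.0 kb (734776 to 878800), 131.9 kb (1171698 to 1303622), 117.2 kb (2410548 to 2527758), 98.9 kb (342602 to 441458) and 98.0 kb (1569678 to 1667682). Of their bases, 95.1% to 99.3% were in regions of replicate 1 and 91.3% to 96.8% in regions of replicate 2. On 3RHet they measured 175.5 kb (520982 to 696494), 132.6 kb (176194 to 308790), 117.6 kb (1865618 to 1983232), 110.9 kb (1496306 to 1607242) and 108.2 kb (2258388 to 2366624). Of these, 98.95% to 99.9% of the bases were in regions of replicate 1 and 95.0% to 99.5% in regions of replicate 2. The longest domain of 3RHet begins where its longest free stretch ends, with the edge at position 520982 in the combined list and the first base covered by a replicate at 521148.

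Within these domains the replicates differed in how finely they were split. The 144.0 kb domain of 3LHet was 2 regions in replicate 1 and 10 in replicate 2, and the 175.5 kb domain of 3RHet was 2 and 8. Replicate 1 held 1 to 5 regions in each of the 5 domains of 3LHet and 2 to 3 in those of 3RHet, against 3 to 10 and 2 to 8 in replicate 2. Replicate 2 was not the more finely split in the 117.2 kb domain of 3LHet, with 4 regions in replicate 1 and 3 in replicate 2, or in the 117.6 kb and 110.9 kb domains of 3RHet, with 2 in each replicate. The longest single region of replicate 1 was 120.4 kb on 3LHet (735834 to 856247) and 145.98 kb on 3RHet (521746 to 667722). That of replicate 2 was 72.6 kb on 3LHet (368032 to 440610) and 90.1 kb on 3RHet (1496709 to 1586827). The longest regions of the replicates thus lay in different domains of each sequence.

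**Figure D3:**
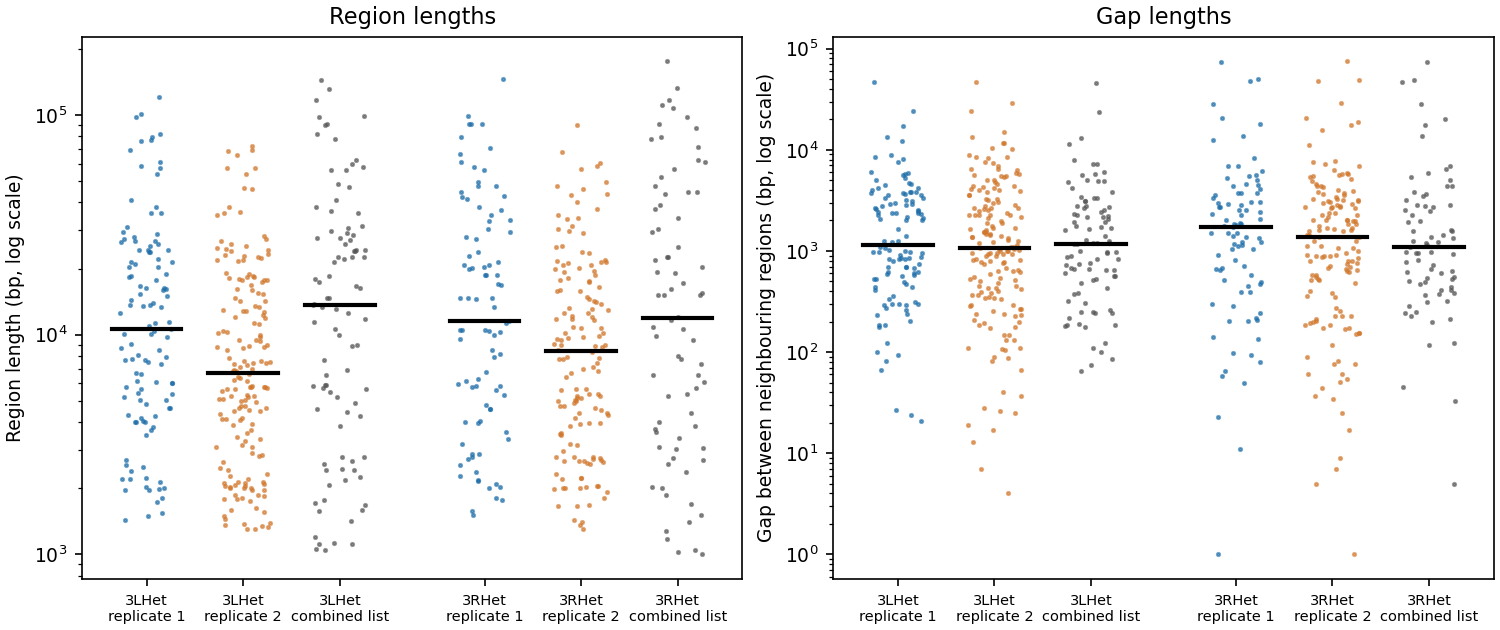
Lengths of H3K9me2 regions (left) and of the gaps between neighbouring regions (right) on 3LHet and 3RHet in both replicate lists and the combined list, on log axes. Each point is a region or a gap and black bars are medians. Region lengths overlap between the sequences, and the longest gaps, above 40 kb, number 1 per list on 3LHet and 3 per list on 3RHet.

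Gaps between neighbouring regions of a list were mostly short. The median gap of 3LHet was 1154.5 bp in replicate 1 and 1065 bp in replicate 2, and that of 3RHet 1744 bp and 1365 bp, leaving out 1 pair of regions on 3RHet in replicate 1 that touched. The difference was -444.8 ± 204.7 bp (3LHet minus 3RHet, SD, n = 2), larger than the SD between replicates of 63.3 bp on 3LHet and 268.0 bp on 3RHet. It did not hold in the combined list, where the medians were 1183 bp on 3LHet and 1105 bp on 3RHet. Gaps under 1000 bp made up 47.4% and 48.0% of all gaps on 3LHet in replicates 1 and 2, and 34.8% and 45.6% on 3RHet.

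The longest gap was longer on 3RHet in each list, whereas the order of the medians turned in the combined list. It was 47.0 kb in replicate 1 and 47.3 kb in replicate 2 on 3LHet, against 74.0 kb and 74.9 kb on 3RHet. The difference was -27.3 ± 0.385 kb (3LHet minus 3RHet, SD, n = 2), and the combined list gave 45.3 kb and 73.1 kb. On each sequence this was 1 stretch seen in both replicates. The SD thus reflects only where its edges were called. Gaps of at least 10 kb held 33.9% and 36.3% of the gap bases of 3LHet in replicates 1 and 2, against 62.3% and 53.2% of those of 3RHet.

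In replicate 2 and the combined list, the score that the authors gave each region stepped like a base-2 logarithm. Over all sequences, the 5 most frequent scores of replicate 2 were 0.621, 2.21, 1.62, 2.62 and 2.94, and 2 raised to these scores stood in the ratios 1, 3, 2, 4 and 5. With base e the last 4 would be 4.88, 2.72, 7.39 and 10.2. In the combined list the ratios were 1, 8, 4, 5 and 7. In replicate 1, for scores of 2.59, 3.59, 2.85, 0.681 and 3.44, they were 3.75, 7.5, 4.5, 1 and 6.75, not all whole numbers. The scale is not stated in the sources used here, and differences between scores are given in score units.

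3RHet scored slightly higher than 3LHet in each list. The median score of 3LHet was 2.04 in replicate 1 and 1.69 in replicate 2, and that of 3RHet 2.19 and 1.79. The difference was -0.131 ± 0.0353 (3LHet minus 3RHet, SD, n = 2), and -0.178 in the combined list. Weighted by bases it was nearly the same, at -0.131 ± 0.0150 (SD, n = 2), with length-weighted means of 2.03 and 1.68 on 3LHet and 2.17 and 1.80 on 3RHet. On both sequences replicate 1 lay above replicate 2 by more than the sequences differed. Among regions under 5 kb the order of the sequences turned in both replicates. Their medians were 2.07 and 1.74 on 3LHet and 2.03 and 1.67 on 3RHet. In the combined list it did not turn, with 1.89 on 3LHet and 2.41 on 3RHet. The scores of 2RHet had medians of 1.99 and 1.62, below both chromosome 3 sequences in each replicate.

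The score was much lower at the high-coordinate end of 3RHet than in the rest of that sequence, with no drop of that size on 3LHet. In windows of 100 kb the length-weighted mean score of 3LHet ranged from 1.77 to 2.48 in replicate 1 and from 1.40 to 2.01 in replicate 2. Its highest window of replicate 1 (1400001 to 1500000) had 2.48 in replicate 1 and 1.98 in replicate 2. That window also holds the second longest free stretch of 3LHet, whose bordering regions scored 2.45 and 2.56 in replicate 1 and 1.95 and 2.05 in replicate 2. High scores and a long region-free stretch thus lay side by side there.

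On 3RHet, windows up to position 1700000 stayed between 2.17 and 2.39 in replicate 1 and between 1.76 and 2.08 in replicate 2. From 1700001 to 1900000 they were 2.00 and 1.88 in replicate 1 and 1.57 and 1.50 in replicate 2. The decline was not continuous. The next 5 windows, to position 2400000, had 2.04, 2.18, 1.95, 2.04 and 1.91 in replicate 1 and 1.63, 1.78, 1.62, 1.95 and 1.52 in replicate 2. The window from 2400001 to 2500000 had 1.28 in replicate 1 and 1.14 in replicate 2, and the last 17.5 kb had 0.877 and 0.819. The drop in the last 2 windows was seen in both replicates and exceeded their spread.

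The last 200 kb of 3RHet (2317508 to 2517507) scored lower and was covered less than the rest of the sequence. Its length-weighted mean score was 1.51 in replicate 1 and 1.24 in replicate 2, against 2.29 and 1.93 in the first 200 kb and 2.21 and 1.83 in the sequence between. It was covered over 63.6% and 60.6%, against 84.6% and 80.0% in the sequence between. A region of 98.6 kb in replicate 1 (2268024 to 2366644, score 2.09) reached into it. Past position 2366644 the regions measured 2008 to 18640 bp in replicate 1 and 1310 to 11764 bp in replicate 2, with scores of 0.603 to 1.78 and 0.581 to 1.91. The last 200 kb of 3LHet (2355492 to 2555491) had 1.90 and 1.52, against 2.19 and 1.89 in its first 200 kb. The last regions of 3RHet in replicate 1 measured 5966 bp (2501567 to 2507532), 5809 bp (2507674 to 2513482) and 3370 bp (2514138 to the sequence end), with scores of 0.707, 0.951 and 1.05. In replicate 2 the first of these places held 2 regions. Of these, 1 scored 0.671 and 1 of 3575 bp (2503679 to 2507253) scored 0.638. The other places held regions of 5163 bp (2507915 to 2513077) and 3170 bp (2514338 to the end), with scores of 0.785 and 0.869. These scores were among the lower ones of 3RHet, whose lowest score was 0.603 in replicate 1 and 0.581 in replicate 2.

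**Figure D4:**
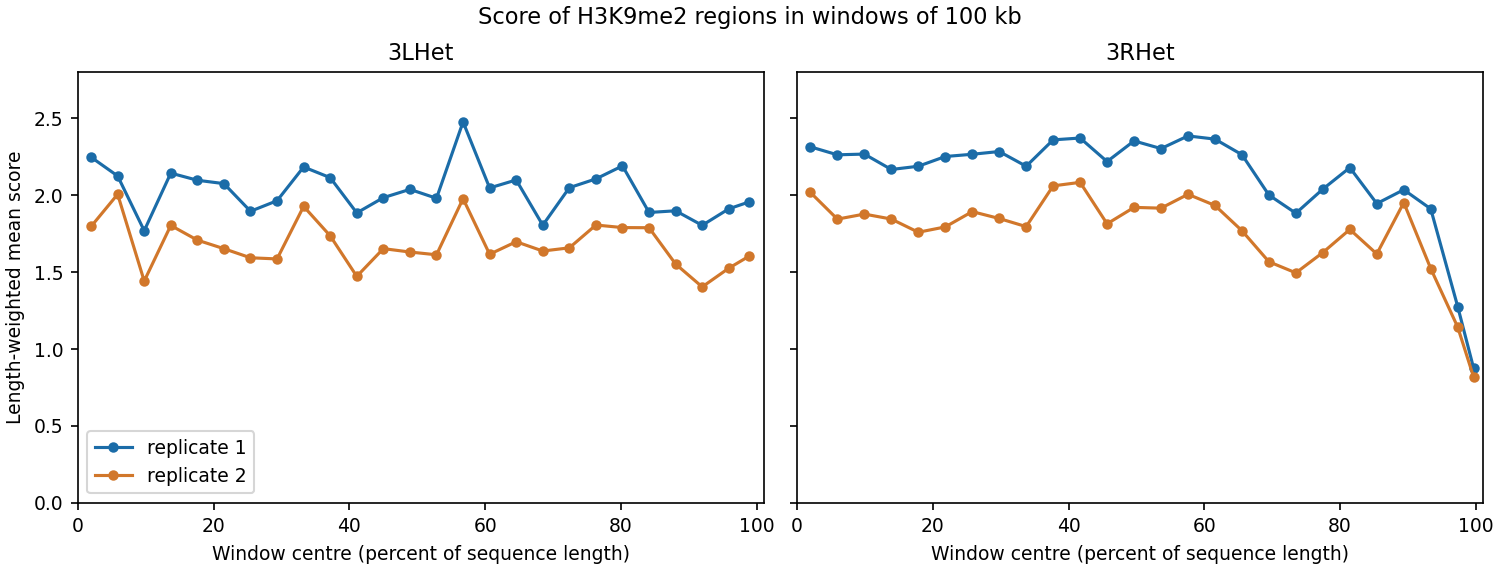
Length-weighted mean score of H3K9me2 regions in windows of 100 kb along 3LHet (left) and 3RHet (right), 1 line per replicate, against the window centre in percent of sequence length (the last window is shorter). 3LHet stays between 1.40 and 2.48, and 3RHet ends at 0.877 in replicate 1 and 0.819 in replicate 2.

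The arm sequences of chromosome 3 gave a second contrast. The centromere-proximal 500 kb of the 3L arm had a length-weighted mean score of 1.98 in replicate 1 and 1.63 in replicate 2, close to the 2.03 and 1.68 of 3LHet. The proximal 500 kb of the 3R arm had 0.812 and 0.713, far from the 2.17 and 1.80 of 3RHet. The last 17.5 kb of 3RHet came near these, with 0.877 and 0.819, but it is a far shorter stretch. Its last 200 kb did not, with 1.51 and 1.24. The proximal 500 kb of 3L was covered over 90.8% in replicate 1 and 85.7% in replicate 2, and that of 3R over 24.1% and 26.1%. In coverage the last 17.5 kb of 3RHet was not near the 3R arm, with 86.5% and 83.6% of its bases in regions. Which end of 3RHet adjoins the arm was not determined here.

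The spread of scores depended on region length. Regions of at least 20 kb had an interquartile range of 0.279 and 0.244 on 3LHet in replicates 1 and 2, and 0.254 and 0.274 on 3RHet. Regions under 5 kb had 1.08 and 0.925 on 3LHet, and 1.76 and 0.941 on 3RHet. Their medians were 2.07 and 1.74 on 3LHet, near the 2.08 and 1.69 of the long regions. On 3RHet they were 2.03 and 1.67, below the 2.25 and 1.86 of the long regions. Short regions held the highest score of each replicate on both sequences and, except on 3LHet in replicate 1, the lowest. They made up only 4.09% and 8.61% of the covered bases of 3LHet and 3.43% and 7.36% of those of 3RHet.

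The highest scores belonged to short regions, and those of replicate 1 seldom overlapped a region of replicate 2. Scores of 3 or more were given to 7 regions on 3LHet and 4 on 3RHet in replicate 1, and to 4 on each in replicate 2, all of 1359 bp to 4057 bp. Of the 11 in replicate 1, 1 overlapped a region of replicate 2, beside 54.7% of the 179 regions that scored 3 or more over all sequences. In replicate 2, 4 of 4 on 3LHet and 2 of 4 on 3RHet overlapped a region of replicate 1, beside 88.6% of 149 over all sequences. There the score over the same bases was 1.42 to 2.17 on 3LHet and 2.36 and 2.94 on 3RHet. On 3LHet the 3 highest of replicate 1 scored 4.07 (958484 to 960484), 3.97 (1880415 to 1882380) and 3.73 (1027943 to 1029379), with 0% covered by replicate 2. The highest of replicate 2 scored 4.14 (616296 to 618773), and replicate 1 covered 93.3% of it at a score of 1.80.

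On 3RHet the 3 highest of replicate 1 scored 3.44 (390596 to 392101), 3.24 (1714408 to 1718464) and 3.17 (1082311 to 1084080), again with 0% covered by replicate 2. In replicate 2 the highest scored 4.32 (1070506 to 1072518), with 0% covered by replicate 1, then 3.94 (855315 to 856720) and 3.87 (1433930 to 1435958). The last of these was a region of its own in both replicates, with 2.94 in replicate 1 (1433869 to 1436033).

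Many of these scores were values that recur exactly in other regions of the same list. Recurring scores, equal to 8 decimals, were held by 21 of 117 regions on 3LHet and 13 of 91 on 3RHet in replicate 1, and by 39 of 174 and 21 of 148 in replicate 2. The shares were 17.9% and 14.3% in replicate 1 and 22.4% and 14.2% in replicate 2, below the 23.1% and 30.6% over all sequences. Among regions under 5 kb they were not below. There 17 of 31 on 3LHet and 10 of 25 on 3RHet recurred in replicate 1, beside 780 of 2471 over all sequences. In replicate 2 these were 33 of 66 and 20 of 51, beside 1359 of 3553. Among regions that scored 3 or more, 6 of 7 on 3LHet and 4 of 4 on 3RHet had such a score in replicate 1, and 2 of 4 and 4 of 4 in replicate 2. The share over all sequences was not computed for regions that scored 3 or more, so these counts have no baseline. Regions with a recurring score were short, with medians of 2400 bp on 3LHet and 2165 bp on 3RHet in replicate 1, against 14739 bp and 16918 bp for the rest.

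**Figure D5:**
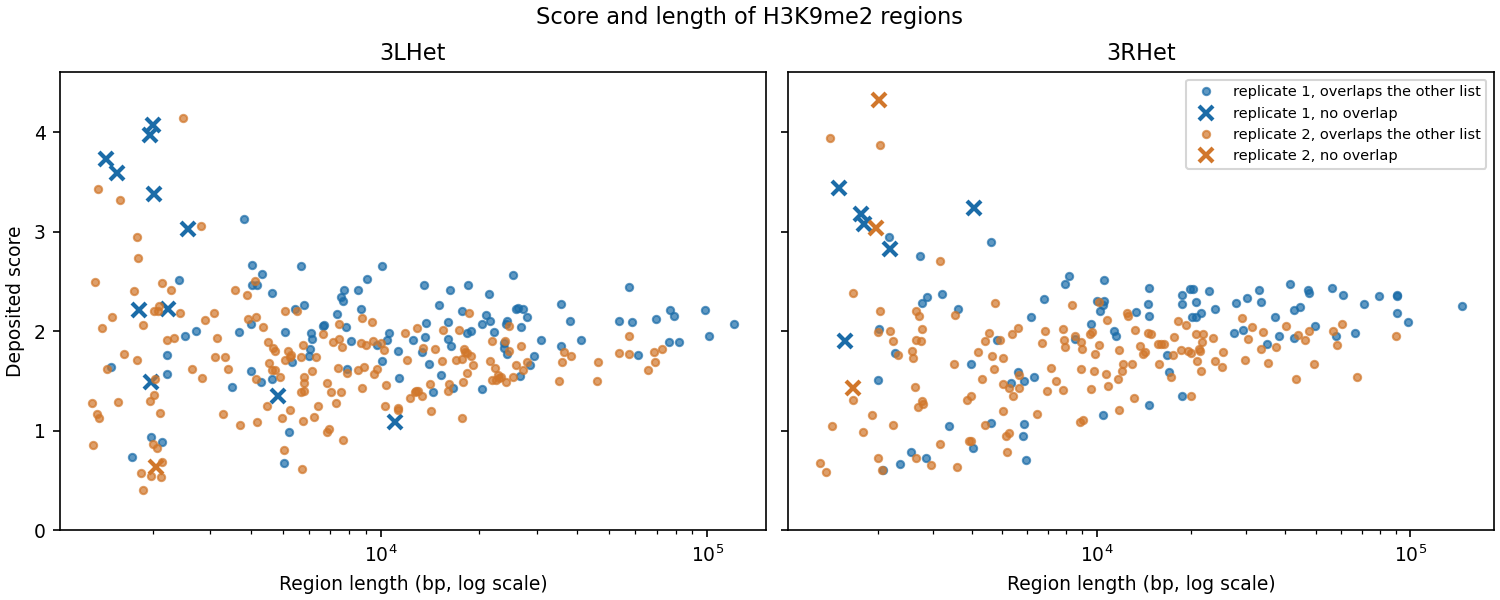
Deposited score against region length (log axis) for the H3K9me2 regions of 3LHet (left) and 3RHet (right) in both replicates. Circles are regions that overlap the other replicate list and crosses those that do not: 11 and 1 on 3LHet and 6 and 3 on 3RHet, for replicates 1 and 2. Scores fan out below 5 kb and narrow among long regions.

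The replicates placed most of the mark at the same bases on both sequences. They shared 2063 kb on 3LHet and 1964 kb on 3RHet. The Jaccard index, which divides the bases shared by the lists by those in any of them, was 0.922 on 3LHet and 0.930 on 3RHet. It was 0.923 on 2RHet, 0.881 on 2LHet, 0.794 on XHet and 0.788 on YHet. The replicate lists covered 78.8% to 86.9% of 3LHet and 3RHet, so a large overlap was likely from coverage alone. No baseline for it was computed. Replicate 2 was nearly contained in replicate 1: 99.2% of its bases on 3LHet and 99.0% on 3RHet were also covered in replicate 1, whereas 92.9% and 93.8% of the bases of replicate 1 were covered in replicate 2. Bases in replicate 1 alone came to 157.2 kb on 3LHet and 129.3 kb on 3RHet, against 16.1 kb and 18.9 kb in replicate 2 alone.

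Of the regions of replicate 1, 90.6% on 3LHet and 93.4% on 3RHet overlapped replicate 2 by at least 1 bp, beside 81.7% over all sequences. For replicate 2 the shares were 99.4% and 98.0%, beside 79.7%. Dense coverage makes such overlap likely, so these shares say little about single regions. Under a reciprocal overlap of 50% the shares for replicate 1 were 75.2% and 78.0% (64.2% over all sequences), and those for replicate 2 were 50.6% and 48.0% (49.8% over all sequences). By that rule the shares of replicate 2 were those of the whole list, and its regions were often pieces of longer ones in replicate 1.

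Splitting was common, on 2RHet as well. On 3LHet 36 of 117 regions of replicate 1 spanned 2 or more regions of replicate 2, with up to 8 in 1. On 3RHet 31 of 91 did, also with up to 8, and on 2RHet 49 of 141. The share over all sequences was not computed. Regions of replicate 2 that spanned more than 1 of replicate 1 numbered 6 on 3LHet and 4 on 3RHet. Gaps of replicate 2 that lay within single regions of replicate 1 numbered 74 in all on 3LHet and 65 on 3RHet. These gaps held 44.5 kb on 3LHet and 45.2 kb on 3RHet, or 28.3% and 35.0% of the bases found in replicate 1 alone. The other bases of replicate 1 alone lay at the edges of its regions or in regions that replicate 2 lacked.

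Regions of 1 replicate without overlap in the other were few. On 3LHet there were 11 in replicate 1 and 1 in replicate 2, and on 3RHet 6 and 3. Over all sequences there were 670 of 3667 in replicate 1 and 960 of 4728 in replicate 2. Dense coverage makes low counts likely here. The unshared regions of replicate 1 had a median score of 3.02 on 3LHet and 3.12 on 3RHet, above the 2.00 and 2.18 of the overlapping regions. Their median lengths were 2001 bp and 1789.5 bp, against 13479.5 bp and 14678 bp for the overlapping regions. Scores were not compared at like length. The longest unshared region of replicate 1 on 3LHet was an exception, with 11.0 kb (2178265 to 2189272) and a score of 1.09. It lies in the window from 2150001 to 2200000, where replicate 1 exceeded replicate 2 by 31.9 percentage points, the widest margin of any 50 kb window of 3LHet or 3RHet. It was followed by regions of 4824 bp (1783326 to 1788149, score 1.35) and 2561 bp (2163262 to 2165822, score 3.02). All 17 single-list regions of replicate 1 and all 4 of replicate 2 touched a region of the combined list. That list was made from the same libraries and covered 90.2% of 3LHet and 85.8% of 3RHet. Such contact was therefore likely and is no separate check. Its share over all sequences was not computed.

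Where regions overlapped, replicate 1 scored higher by a similar amount on both sequences. The median of replicate 1 minus replicate 2, with the score of replicate 2 averaged over the shared bases, was 0.337 on 3LHet (interquartile range 0.185 to 0.440; 106 regions) and 0.351 on 3RHet (0.186 to 0.444; 85 regions). Replicate 1 was higher in 95 of 106 on 3LHet and 78 of 85 on 3RHet. Spearman's rho of the scores was 0.683 on 3LHet and 0.804 on 3RHet, across regions that share 2 libraries and are not independent. The 3 widest differences on each sequence were those of regions of 1.49 kb to 6.63 kb. On 3LHet they were at 149256 to 150746 (1.64 in replicate 1, 2.50 in replicate 2), 2375394 to 2382023 (2.05 and 1.25) and 1764068 to 1766467 (2.51 and 1.77). On 3RHet they were at 2110307 to 2113504 (2.37 and 1.31), 772961 to 775826 (2.35 and 1.31) and 1433869 to 1436033 (2.94 and 3.87).

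The combined list joined domains and added few regions here. Of its regions, 73 of 93 on 3LHet and 61 of 76 on 3RHet overlapped both replicate lists, and 8 and 6 overlapped 1 of them. Those in neither numbered 12 on 3LHet (12.9%) and 9 on 3RHet (11.8%), against 33.2% over all sequences. They were short, with medians of 1313 bp and 1279 bp and 16.8 kb and 14.3 kb in all. Their median score was 1.76 on 3LHet and 2.70 on 3RHet, against 0.435 for such regions over all sequences.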

How the data were processed

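H3K9me2 ChIP was profiled in 2 libraries, each set against its own input library. The submitters' processing notes name the aligner Bowtie, version 0.12.7. Coordinates refer to FlyBase release 5 (file headers). The authors deposited 3 lists of enriched regions, and the score of a region is the authors' enrichment value as deposited. The region caller and the rule for combining libraries were not given in the sources used here.

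Regions on 3LHet and 3RHet were taken from each list, and those past a sequence end (1 on 3RHet in replicate 1, 1 on each sequence in the other lists) were trimmed to it. Covered bases, gaps, N50, overlaps and stretches free in both replicates were computed per list with Python 3.11.15, numpy 2.4.6 and pandas 2.3.3. This arithmetic equalled base-by-base counting in 50 of 50 simulated pairs of lists. Values are means with SD over 2 replicates, and no test was run. Named regions are, per sequence, the 5 longest of the combined list, the 3 longest, the 3 highest-scoring and the 3 longest unshared of each replicate, the 3 shared ones with the widest score difference, and the 5 longest free stretches. Others were named after their values were seen. Members and rules were chosen with earlier results of these data known. Alternatives were other minimum lengths, merging, a score threshold, single lists and weighting by bases. The input libraries have no list and entered only through the authors' calling.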

Additional observations from a re-analysis of the deposited data

How the results depend on the processing

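Values are differences of 3LHet minus 3RHet unless named otherwise. The difference in coverage was 2.57 to 3.70 percentage points with 1 replicate left out, 4.41 in the combined list and -2.03 outside free stretches of at least 10 kb (chosen after seeing the data). The difference in median region length was -1722 to -950.0 bp with 1 replicate left out, -2600 bp in the highest-scoring 50% of each list and -8083 bp as N50. It turned to 2744 bp when regions within 1000 bp were merged and to 1841 bp in the combined list. The difference in median gap was -589.5 to -300.0 bp with 1 replicate left out, -149.2 bp for regions of at least 2000 bp and -123.8 bp in the highest-scoring 50%. It turned to 187.5 bp after merging and to 78.0 bp in the combined list. The difference in median score was -0.156 to -0.106 with 1 replicate left out, -0.178 in the combined list and -0.180 without the last 200 kb of 3RHet (also chosen after seeing the data). For regions of at least 2000 bp, merged regions and the highest-scoring 50%, the difference in the free share was -3.38, -4.13 and -3.86 points. In the same order the Jaccard index was 0.915, 0.929 and 0.919 on 3LHet and 0.928, 0.938 and 0.928 on 3RHet. Reciprocal overlap of 50% gave 75.2% and 50.6% shared regions on 3LHet and 78.0% and 48.0% on 3RHet, for replicates 1 and 2. What caused these moves was not tested. The longest free stretch of each sequence kept its length under minimum length, merging and the score threshold, but none of these settings could have shortened it. Depth is unknown, and how finely domains are split limits the comparison of median lengths and gaps. No paired analysis was possible because only ChIP libraries have lists, which leaves ChIP against input not analysed here. Each 3LHet minus 3RHet difference was taken within the list of 1 replicate.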
